A study of Mus musculus with 6 samples.

Results

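The genes described here are 50 genes of mitosis and chromosome segregation, taken by symbol from the deposited table of 55487 genes: mitotic kinases and cyclins, and genes of the checkpoint, kinetochore, spindle and cytokinesis. All 50 were found in the table and all 50 had enough counts to be tested. The table holds RNA-seq counts from whole dorsal mouse skin on day 2, 3 control samples and 3 samples given DPCP. DPCP (diphenylcyclopropenone) is a contact sensitizer, a small molecule used to set off a delayed allergy in the skin. The comparison belongs to a study of hair regrowth under contact hypersensitivity and asks how gene expression in DPCP skin differed from that in control skin. The labels give no strain, age, sex or dose and leave the handling of the control skin unnamed. Whether a group's 3 samples are from different mice is not given either, so the p-values measure only the spread between these samples, which may be technical.

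In a dividing cell, cyclin-dependent kinase 1 bound to cyclins A and B starts mitosis, condensin and topoisomerase II compact the chromosomes, and the spindle attaches to each chromosome at its kinetochore. The spindle checkpoint holds the cell before anaphase until all kinetochores are attached. The anaphase-promoting complex then marks securin and cyclin B for destruction, separase cuts the cohesin that holds sister chromatids, and the cleavage furrow parts the daughter cells. In skin, dividing cells lie mainly in the basal layer of the epidermis and, during growth of the hair, in the matrix of the follicle, and immune cells can also divide there.

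Nearly the whole set was higher in DPCP skin. Of the 50 genes, 48 rose, 1 fell (Pttg1, the securin gene) and 1 was not called (Ttk, a checkpoint kinase gene), by edgeR's quasi-likelihood test at a Benjamini-Hochberg adjusted p under 0.05. Over all 18259 genes tested, 22.8% were called higher and 23.3% lower, 46.1% in either direction. The median log2 fold change of the 50 genes was 1.40, a fold of 2.64, with quartiles of 1.02 and 1.65, against a median of -0.01 over all genes tested. A log2 fold change of at least 1 was found for 38 of the 50, and for 8.54% of all genes. A rise given as a number ± SE is a log2 fold change throughout. Only 3 genes reached 4-fold, Plk1, Aurka and Birc5. For the 48 genes called higher, each DPCP library lay above each control library, which held for 24.3% of all genes tested. Since the genes were picked as a related group with earlier results of these data known, these shares describe them and carry no test of the group.

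Summed over the 50 genes, the level was 1232, 1289 and 1314 CPM in the control and 2897, 2537 and 2955 CPM in the DPCP libraries, a ratio of 2.19 with no overlap between the groups. CPM values give a gene's count relative to the total count of its library. These are levels in whole tissue, in which more cells in division and more RNA per dividing cell cannot be told apart. The replicates were close: the SD over 3 libraries had a median of 8.59% of the mean in control and 9.37% in DPCP skin, and reached 27.6% for Cenpk in control. The lowest count of any of the genes in a library was 63 and the highest 12090, out of library totals of 28346992 to 38846787.

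**Figure D1:**
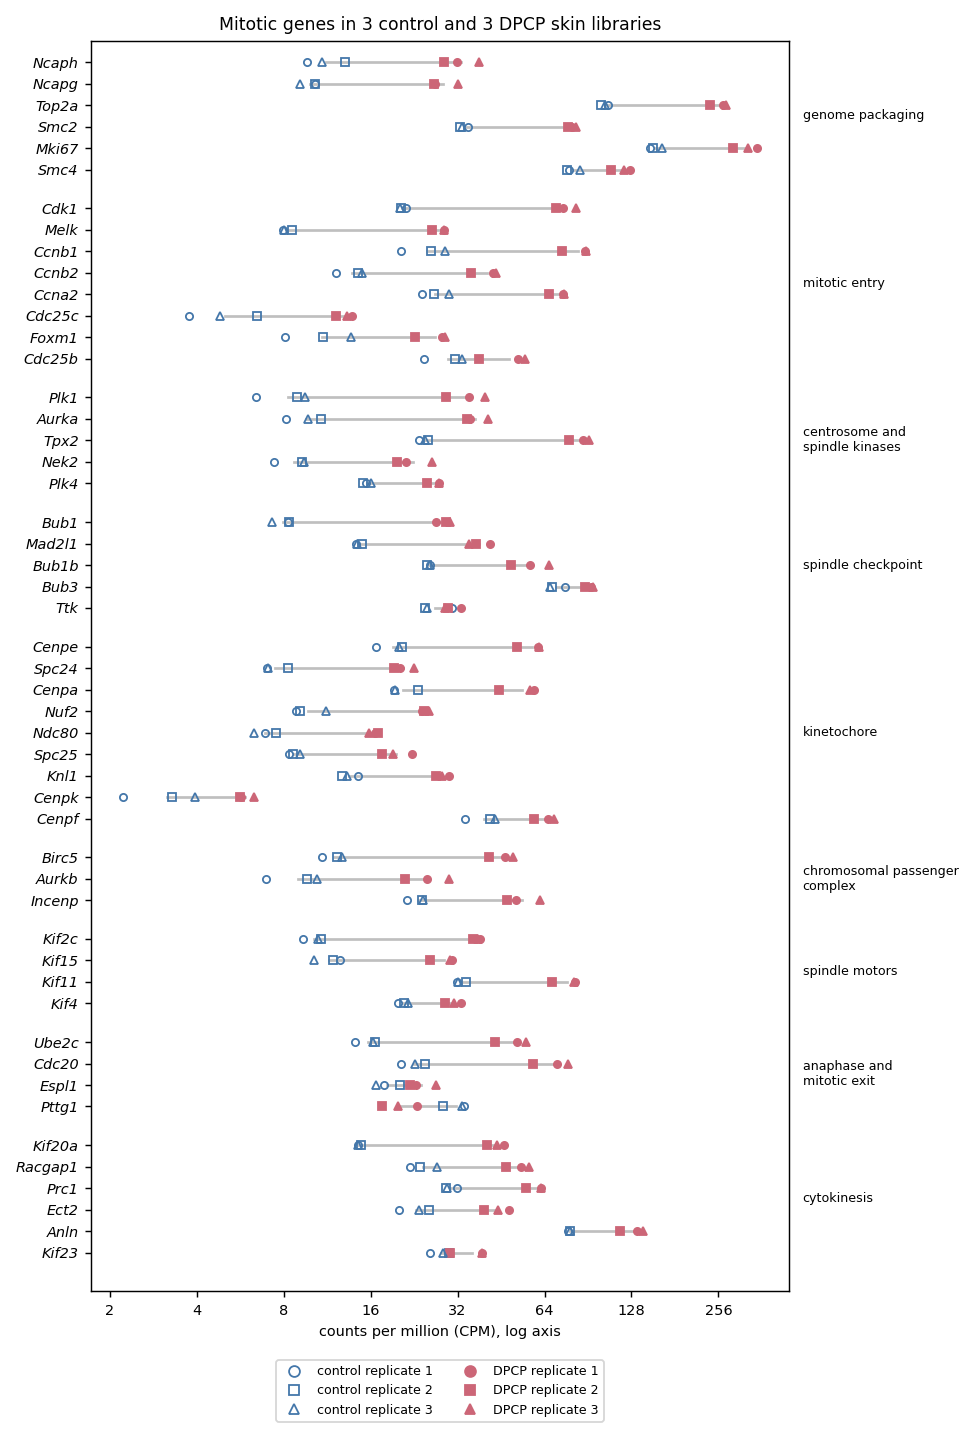
CPM (log axis) of the 50 genes in each of the 3 control libraries (open symbols) and 3 DPCP libraries (filled symbols), with a grey line between the group means and the genes sorted by role and by log2 fold change. The filled symbols lie to the right of the open ones for 48 genes, the groups overlap for Ttk, and Pttg1 is the only gene with all DPCP libraries on the left.

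Markers of several cell types moved with the group. Beside the counts below, 22.8% of all genes tested were called higher and 23.3% lower. The 7 basal keratinocyte genes summed to 13825 to 15868 CPM in control and 23757 to 28616 CPM in DPCP skin, with 3 of them higher and 2 lower. Krt14 alone, a keratin gene of the basal layer, went from a mean of 4893 to 16979 CPM, and the other 6 basal genes summed to 9058 to 10634 CPM in control and 8227 to 10127 CPM in DPCP skin, with overlap. The 7 suprabasal genes summed to 13113 to 17822 and 4107 to 5499 CPM, with 5 lower and none higher. Keratinocyte markers of both lists were detected in every library, as the label skin requires. The leukocyte list (5 genes, 4 higher) summed to 327 to 492 CPM in control and 668 to 949 CPM in DPCP skin. For the macrophage list (5 genes, 2 higher) the sums were 820 to 1467 and 1607 to 2567 CPM, and for the endothelial list (5 genes, 3 higher and 1 lower) 222 to 273 and 362 to 391 CPM. Neutrophil genes, all 6 higher, summed to 43.0 to 49.7 CPM in control and to 491, 1216 and 754 CPM in the DPCP libraries. T cell genes, all 5 lower, summed to 73.4 to 90.2 CPM in control and 28.4 to 35.8 CPM in DPCP skin, and the 5 skeletal muscle genes, all lower, to 8667 to 11521 and 2231 to 4386 CPM. Of the hair matrix and shaft list, 7 genes were matched, Krt35, Krt31 and Krt25 were at 0 in some library, and the sum was 32.1 to 37.0 CPM in control and 18.3 to 29.8 CPM in DPCP skin, and of the 3 that had enough counts to be tested none was higher and 1 lower. The fibroblast list (6 genes, 2 higher) was at 4752 to 7004 and 6202 to 7230 CPM. When the gene that differed most was left out of each list, a check added after seeing the data, the groups also overlapped for the macrophage, fibroblast and hair sums, and did not overlap for the suprabasal, leukocyte, neutrophil, T cell, endothelial and skeletal muscle sums. The part of these cell types in the rise of the mitotic genes was not tested.

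**Figure D2:**
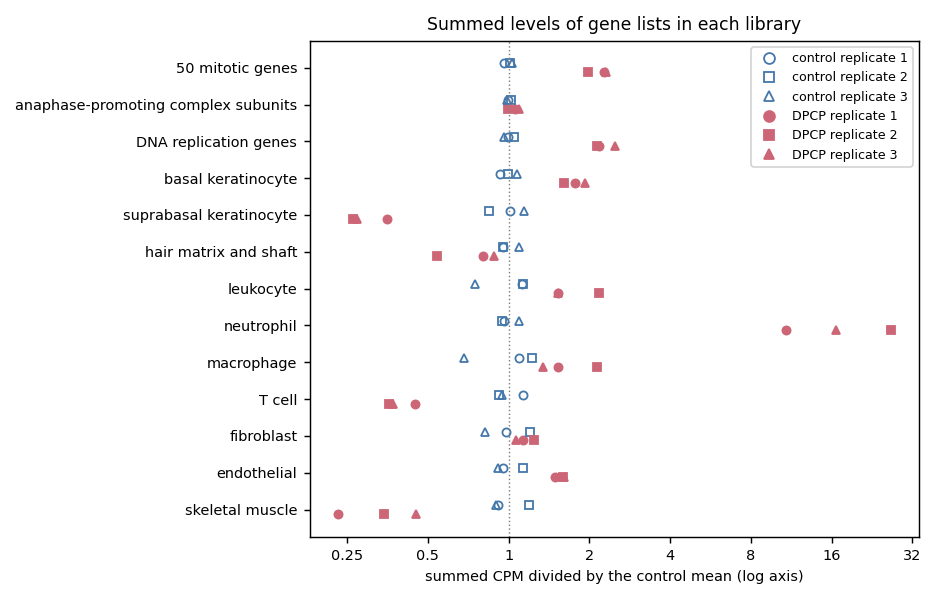
Summed CPM of the 50 mitotic genes, of 2 related lists and of the cell type marker lists in each library, divided by the mean of the 3 control libraries (log axis; the dotted line is 1). The mitotic and DNA replication sums are about 2 to 2.5 times the control mean in every DPCP library, and the neutrophil sums lie higher. The basal keratinocyte sum is also above 1, with a ratio of 0.927 when Krt14 is left out, while suprabasal, T cell and skeletal muscle sums lie below 1.

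The DPCP libraries were not alike. DPCP replicate 2 was the lowest DPCP library for 45 of the 50 genes, against 44.1% of all genes tested, and for 36 of them, against 32.4%, when CPM was scaled by TMM factors. It was also the library with the highest neutrophil, leukocyte and macrophage sums. The median log2 ratio of the 50 genes to their control mean was 1.36, 1.20 and 1.39 in DPCP replicates 1, 2 and 3. Without DPCP replicate 2, 48 genes were called higher and 1 lower, with a median log2 fold change of 1.43. Among the control libraries, control replicate 1 was the lowest for 33 of the 50 genes, against 30.1% of all genes.

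Many genes of this set share promoter motifs. In textbook accounts, genes of the G2 phase and mitosis are held by the MuvB complex at a CHR element (cell cycle genes homology region, TTTGAA or TTCGAA) and carry boxes for the factor NF-Y (CCAAT), while genes of DNA replication carry E2F-type sites (searched here as TTCGCGC, also as TTGGCGC and further as TTCCCGC). All motifs were searched on both strands in RefSeq windows of 250 bases before to 50 after the annotated start (build GRCm38.p6), and 41 of the 50 genes had a window. The CHR element was found for 30 of the 41 genes, 73.2% (Wilson 95% interval 58.1 to 84.3), and for 21.7% of all 27025 genes with a window. The genes were picked by function and are textbook targets through these motifs, so a high share could follow from the choice. The Wilson intervals treat the genes of a list as a random sample, which they are not, and serve as a description only. An NF-Y box was found in 70.7% of the mitotic genes and 41.1% of all genes, at least 2 boxes in 43.9% and 13.3%, and both motifs together in 61.0% and 8.61%. E2F-type sites were found in 22.0% of the mitotic genes and 9.20% of all genes. Of 32 DNA replication genes with a window, 18.8% held a CHR element and 65.6% an E2F-type site, while an NF-Y box was present in 59.4% (Wilson 95% interval 42.3 to 74.5, against 55.5 to 82.4 for the mitotic genes) and at least 2 in 34.4%. Of 83 genes from the lists of other mitotic genes, 49.4% held a CHR element, 61.4% an NF-Y box and 30.1% an E2F-type site.

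The matches also lay at like positions. Of 41 CHR sites in the mitotic genes, each counted once where windows of a gene overlap, 29 lay within 50 bases of a start on either side, in 28 of the 41 genes, against 6.12% of all genes. A pair of NF-Y boxes 31 to 34 bases apart, a spacing noticed in these windows and searched afterwards, was present in 7 of the 41 genes (17.1%) and in 1.37% of all genes. The stretches below run from 110 bases before to 30 after the start, 5′ to 3′ on the strand of the gene. They were chosen to show the layout in 6 genes that rose by over 3-fold, in Ttk, which was not called, in Pttg1, which fell, and in Espl1, whose product the Pttg1 protein inhibits. Capitals mark CHR elements and NF-Y boxes in either orientation (TTCAAA stands for TTTGAA on the other strand, and ATTGG stands for CCAAT there).
Cdk1: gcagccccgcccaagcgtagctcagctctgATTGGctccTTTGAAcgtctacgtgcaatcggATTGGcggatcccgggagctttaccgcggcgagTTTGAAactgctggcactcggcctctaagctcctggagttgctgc
Ccnb1: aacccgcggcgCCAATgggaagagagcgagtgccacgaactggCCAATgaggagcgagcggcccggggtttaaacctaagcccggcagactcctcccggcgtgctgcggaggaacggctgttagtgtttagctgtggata
Ccnb2: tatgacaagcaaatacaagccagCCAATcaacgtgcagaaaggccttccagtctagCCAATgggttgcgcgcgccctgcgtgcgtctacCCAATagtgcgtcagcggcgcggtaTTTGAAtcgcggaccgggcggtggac
Cdc20: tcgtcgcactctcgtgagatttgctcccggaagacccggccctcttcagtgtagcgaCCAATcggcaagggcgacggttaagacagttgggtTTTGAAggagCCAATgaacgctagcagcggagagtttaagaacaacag
Ube2c: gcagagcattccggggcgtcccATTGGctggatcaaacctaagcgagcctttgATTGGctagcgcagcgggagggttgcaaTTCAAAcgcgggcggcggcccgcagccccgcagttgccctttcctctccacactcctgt
Bub1: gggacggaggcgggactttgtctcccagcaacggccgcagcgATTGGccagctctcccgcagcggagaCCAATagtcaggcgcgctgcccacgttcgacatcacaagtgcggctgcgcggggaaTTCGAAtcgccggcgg
Espl1: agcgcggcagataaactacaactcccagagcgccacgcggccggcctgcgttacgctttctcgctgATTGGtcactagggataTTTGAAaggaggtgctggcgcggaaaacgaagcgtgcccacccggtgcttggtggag
Ttk: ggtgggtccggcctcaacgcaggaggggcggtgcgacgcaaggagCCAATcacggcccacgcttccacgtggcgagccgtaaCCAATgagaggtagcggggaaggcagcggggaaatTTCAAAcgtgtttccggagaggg
Pttg1: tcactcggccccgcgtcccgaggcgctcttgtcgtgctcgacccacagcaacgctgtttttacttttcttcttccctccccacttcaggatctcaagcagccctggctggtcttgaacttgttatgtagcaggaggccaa

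The Cdk1 stretch (chr10:69352883-69353022, minus strand) holds NF-Y boxes at -80 and -48 and CHR elements at -71 and -15, counted to the first base of the match with the start as position 1. In Ccnb2 (chr9:70421525-70421664, minus strand) 3 NF-Y boxes at -87, -54 and -21 stand before a CHR element at 5. Ube2c (chr2:164769819-164769958, plus strand) has boxes at -88 and -57 before a CHR element at -29. Bub1 (chr2:127831830-127831969, minus strand) has boxes at -68 and -42 before the TTCGAA form at 15. Cdc20 (chr4:118437314-118437453, minus strand) has a CHR element at -18 between boxes at -53 and -8. In Ccnb1 (chr13:100786457-100786596, minus strand) only the boxes at -99 and -67 matched, the former overlapping an E2F-type match at -102.

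The same motifs stood before genes that rose little or were not called. Ttk (chr9:83834579-83834718, plus strand), which was not called, has boxes at -65 and -28 and a CHR element at 8. Espl1 (chr15:102296183-102296322, plus strand) has a box at -44 and a CHR element at -27. Pttg1 (chr11:43425952-43426091, minus strand), which fell, has no match to the CHR, NF-Y or E2F-type letters in its window. Birc5, Melk, Mad2l1 and Nuf2, with log2 fold changes of 2.01, 1.84, 1.46 and 1.42, have no match in their windows either. The Pttg1 gene model of the deposited table, from 43420250 to 43426251, begins upstream of the whole RefSeq window, so its start was not searched. The gene models of Kif2c and Kif4 also begin upstream of their windows. Those of Mad2l1 and Plk4 begin downstream of theirs, so the starts of these models were not searched either. The 30 genes with a CHR element had a median log2 fold change of 1.27 and the 11 without one 1.46. Splits by NF-Y boxes went both ways. The 18 genes with at least 2 NF-Y boxes had a median of 1.42 and the 23 others 1.32. Genes with any NF-Y box had a median of 1.30 and those without 1.41. With both a CHR element and an NF-Y box the median was 1.25, and 1.43 for the others. For the pair of boxes 31 to 34 bases apart it was 1.74 with and 1.27 without. These medians are descriptions of overlapping sets of genes, and a match is no proof that a factor binds there.

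**Figure D3:**
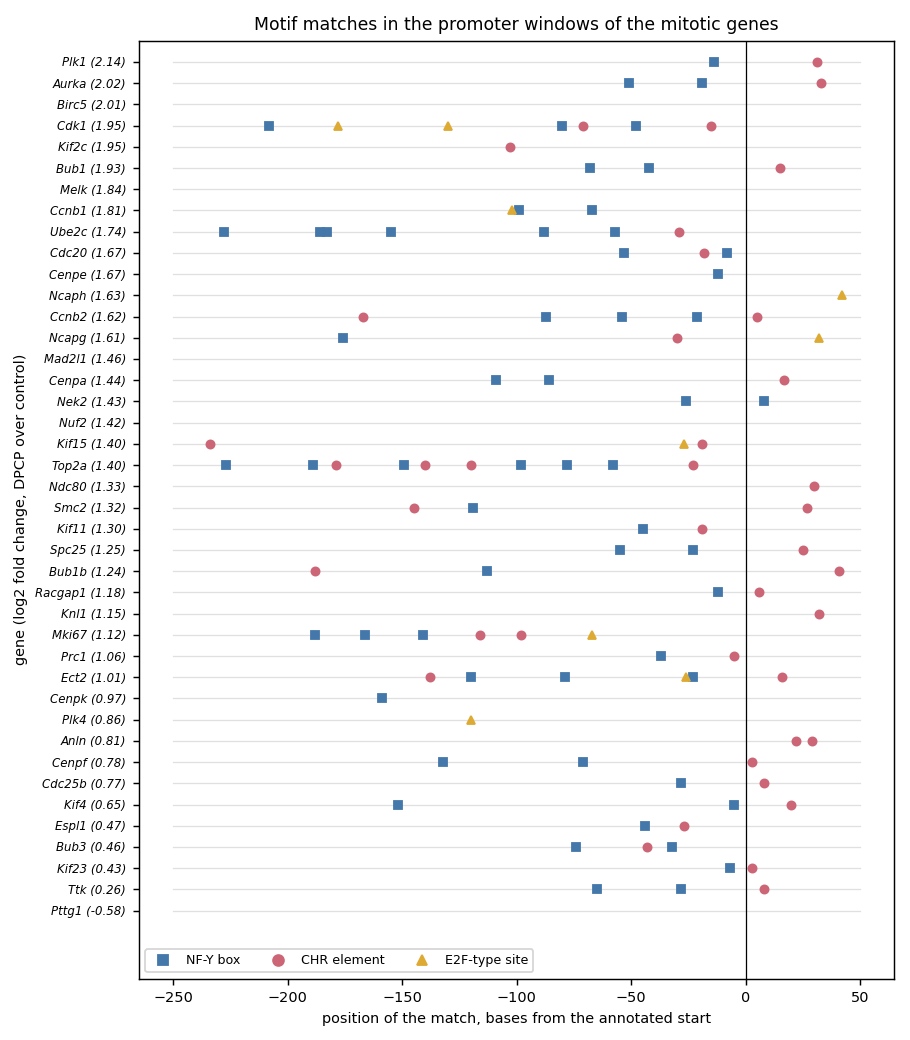
First base of each match to the NF-Y box, CHR element and E2F-type site, in bases from the annotated start (vertical line), in the RefSeq windows of the 41 genes, sorted by log2 fold change, which is given beside the symbol. For Cenpk, Bub3, Ect2 and Prc1, which have several windows, only the first is drawn. Many windows have a CHR element near the start with an NF-Y box before it. Near the top of the order these include Plk1, Aurka, Cdk1 and Bub1, and near the bottom Ttk, Kif23, Bub3, Espl1, Kif4, Cdc25b and Cenpf. Birc5, Melk and Pttg1 have no match, Ccnb1 has no CHR element and Kif2c no NF-Y box. The median log2 fold change was 1.27 for genes with a CHR element and 1.46 for those without.

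The genes that pack the chromosomes all rose (6 of 6, median log2 fold change 1.36). Smc2, an ATPase subunit of the condensin complexes, was at 34.9, 32.5 and 33.2 CPM in control against 79.5, 77.3 and 82.3 CPM in DPCP libraries, a log2 fold change of 1.32 ± 0.08 (SE, with edgeR adjusted p = 1.26e-05). Top2a, which encodes the topoisomerase that untangles DNA, was at 107, 100.2 and 104 CPM in control against 266, 239.6 and 272 CPM in DPCP libraries (1.40 ± 0.08). In both genes the control libraries lay close together and far below the DPCP libraries. Mki67, the Ki-67 gene, whose protein coats mitotic chromosomes and is the usual stain for cycling cells, was at 148, 152 and 164 CPM in control against 348, 288 and 325 CPM in DPCP libraries, a log2 fold change of 1.12 ± 0.09. The smallest difference was that of Smc4, the partner of Smc2 in condensin, at 77.8, 76.4 and 85.1 CPM in control against 126, 109 and 120.4 CPM in DPCP libraries (0.64 ± 0.09). Ncapg and Ncaph, subunits of condensin I alone, rose by log2 fold changes of 1.61 ± 0.11 and 1.63 ± 0.14. Top2a and Ncapg share exon bases with another gene (1.35% and 13.4% of their length), and the counting dropped reads there.

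All 8 genes of mitotic entry rose, with a median log2 fold change of 1.55. Cdk1 (ENSMUSG00000019942, chromosome 10, 69335146 to 69352938), the kinase that drives entry, was at 21.2, 20.3 and 20.3 CPM in control against 74.1, 69.9 and 82.1 CPM in DPCP libraries, a log2 fold change of 1.95 ± 0.09 (SE, with edgeR adjusted p = 4.33e-06, the smallest of the 50 genes). Melk, a kinase gene of proliferating cells, was at 7.97, 8.53 and 8.04 CPM in control against 28.8, 26 and 28.6 CPM in DPCP libraries (1.84 ± 0.10). The 3 control libraries of each gene were nearly level, and no DPCP library came near them. Ccnb1, a B-type cyclin that activates Cdk1, was at 20.3, 25.8 and 29 CPM in control against 88, 73.8 and 89.1 CPM in DPCP libraries (1.81 ± 0.14), with control replicate 1 the lowest library. Ccnb2 and the cyclin A gene Ccna2 rose by 1.62 ± 0.12 and 1.49 ± 0.11. Foxm1, a transcription factor that switches on genes of G2 and mitosis, was at 8.11, 10.9 and 13.7 CPM in control against 28.4, 22.9 and 29 CPM in DPCP libraries, a log2 fold change of 1.36 ± 0.19 with a wide spread in control. Among the phosphatases that activate Cdk1, Cdc25c rose by 1.45 ± 0.19, and Cdc25b, the smallest difference of this group, was at 24.5, 31.4 and 33.2 CPM in control against 51.7, 37.9 and 54.9 CPM in DPCP libraries (0.77 ± 0.16, edgeR adjusted p = 0.00458). Ccna2 shares 12.5% of its exon bases with Exosc9 and Cdc25c 12.7% with a predicted gene, Foxm1 and Cdc25b share 2.50% and 2.47%, and Ccnb1 and Ccnb2 have an annotated pseudogene, so the levels of these 6 genes are uncertain. Gene positions are given as the authors' count table lists them, build GRCm38.

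The centrosome and spindle kinases were the role group with the highest median log2 fold change, 1.87, and all 5 genes rose. Tpx2, which encodes the activator of Aurora A on the spindle, was at 23.6, 25.3 and 24.6 CPM in control against 86.9, 77.9 and 91.1 CPM in DPCP libraries (1.87 ± 0.09, SE; edgeR adjusted p = 4.52e-06). Aurka, the gene of Aurora A itself, was at 8.15, 10.8 and 9.68 CPM in control against 35.2, 34.4 and 40.8 CPM in DPCP libraries (2.02 ± 0.13). Plk1 (ENSMUSG00000030867, chromosome 7, 122159439 to 122169873), a polo-like kinase gene that acts from centrosome maturation to cytokinesis, was at 6.42, 8.87 and 9.50 CPM in control against 35.1, 29.3 and 39.7 CPM in DPCP libraries. Its log2 fold change of 2.14 ± 0.17 was the largest of the 50 genes, between 1.99 and 2.27 when each library in turn was left out. The centriole duplication kinase gene Plk4 had the smallest of this group, at 15.5, 15 and 16.1 CPM in control against 27.5, 25 and 27.7 CPM in DPCP libraries (0.86 ± 0.09). Nek2, which encodes a kinase of centrosome separation, rose by 1.43 ± 0.15. Exon bases shared with another gene made up 7.09% of Plk1 and 6.60% of Nek2.

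Of the 5 spindle checkpoint genes, 4 rose and Ttk was not called (median log2 fold change 1.24). Bub1, a checkpoint kinase gene, was at 8.29, 8.35 and 7.26 CPM in control against 26.9, 29.2 and 30.2 CPM in DPCP libraries, a log2 fold change of 1.93 ± 0.11 (SE, with edgeR adjusted p = 1.13e-05). Mad2l1, whose protein Mad2 binds and inhibits Cdc20, was at 14.3, 14.9 and 14.3 CPM in control against 41.6, 37.2 and 35.1 CPM in DPCP libraries (1.46 ± 0.09). Bub1b, the BubR1 gene, rose by 1.24 ± 0.11 and Bub3 by 0.46 ± 0.08. Bub3 was an abundant gene with a small difference, at 75.1, 67.8 and 67 CPM in control against 92.5, 88.5 and 93.9 CPM in DPCP libraries, and its groups did not overlap. Ttk (ENSMUSG00000038379, chromosome 9, 83834689 to 83872389), which encodes the kinase Mps1 that starts checkpoint signalling at kinetochores, was at 30.6, 24.6 and 25 CPM in control against 32.8, 29.6 and 29 CPM in DPCP libraries. Its control replicate 1 lay above DPCP replicates 2 and 3, and its log2 fold change was 0.26 ± 0.11 (edgeR adjusted p = 0.0724). Without control replicate 1 Ttk was called higher (0.37, edgeR adjusted p = 0.0296). The stretch printed above for Ttk holds 2 NF-Y boxes and a CHR element, as does that of Bub1.

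All 9 kinetochore genes rose, with a median log2 fold change of 1.33. Cenpe, a kinesin gene that links kinetochores to microtubules, was at 16.8, 20.5 and 20.1 CPM in control against 60.9, 51.6 and 61 CPM in DPCP libraries (1.67 ± 0.11, SE; edgeR adjusted p = 2.07e-05). Spc24, a subunit gene of the Ndc80 complex, was at 6.98, 8.28 and 7.05 CPM in control against 20.3, 19.2 and 22.6 CPM in DPCP libraries (1.55 ± 0.12). The other 3 subunit genes of that complex, which grips microtubule ends, also rose, Ndc80 by 1.33 ± 0.12, Nuf2 by 1.42 ± 0.13 and Spc25 by 1.25 ± 0.12. Cenpa, the gene of the histone H3 variant that marks the centromere, rose by 1.44 ± 0.12, Knl1, a scaffold for checkpoint proteins, by 1.15 ± 0.10 and Cenpf by 0.78 ± 0.11. The least certain difference was that of Cenpk, a subunit of the inner kinetochore and the gene with the fewest counts of the set, at 2.22, 3.29 and 3.94 CPM in control against 5.70, 5.66 and 6.33 CPM in DPCP libraries (0.97 ± 0.22, edgeR adjusted p = 0.00782). Cenpk shares 4.45% of its exon bases with Ppwd1.

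The chromosomal passenger complex corrects wrong attachments and later moves to the midzone, and its 3 genes in the set rose. Birc5, the survivin gene, was at 10.8, 12.2 and 12.8 CPM in control against 46.6, 41 and 49.6 CPM in DPCP libraries, a log2 fold change of 2.01 ± 0.11 (SE, with edgeR adjusted p = 8.14e-06). Incenp, the scaffold gene of the complex, was at 21.4, 24.2 and 24.2 CPM in control against 50.9, 47.4 and 61.6 CPM in DPCP libraries (1.27 ± 0.11). Aurkb, the gene of its kinase Aurora B, was at 6.95, 9.63 and 10.4 CPM in control against 25.1, 21 and 29.8 CPM in DPCP libraries (1.56 ± 0.18). All 3 showed the lowest control library in replicate 1 and the highest DPCP library in replicate 3. Cdca8, which encodes borealin, another member of the complex, was counted with the other spindle genes.

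All 4 spindle motor genes rose, with a median log2 fold change of 1.35. Kif2c, which encodes a kinesin that takes microtubules apart at centromeres, was at 9.31, 10.8 and 10.5 CPM in control against 38.2, 36.2 and 37.8 CPM in DPCP libraries, a log2 fold change of 1.95 ± 0.10 (SE, with edgeR adjusted p = 6.31e-06). Kif11, the Eg5 gene, whose motor pushes spindle poles apart, was at 31.9, 34.2 and 32 CPM in control against 81.5, 67.7 and 80.9 CPM in DPCP libraries (1.30 ± 0.09). Kif4, a chromosome-bound kinesin gene, had the smallest difference, at 19.9, 20.9 and 21.6 CPM in control against 32.8, 29 and 31.1 CPM in DPCP libraries (0.65 ± 0.09), and Kif15 rose by 1.40 ± 0.11. Kif4 shares 15.1% of its exon bases with Pdzd11 and has an annotated pseudogene, so its level is uncertain.

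Genes of anaphase and mitotic exit were split: 3 of the 4 rose and Pttg1 fell. Ube2c, the ubiquitin-conjugating enzyme gene of the anaphase-promoting complex, was at 14.1, 16.5 and 16.3 CPM in control against 51.3, 43 and 55.3 CPM in DPCP libraries, a log2 fold change of 1.74 ± 0.11 (SE, with edgeR adjusted p = 2e-05). Cdc20, the activator of that complex at the start of anaphase, was at 20.3, 24.7 and 22.8 CPM in control against 70.4, 58.3 and 76.9 CPM in DPCP libraries (1.67 ± 0.12). Pttg1 (ENSMUSG00000020415, chromosome 11, 43420250 to 43426251) encodes securin, the inhibitor of separase that the complex destroys, and was at 33.5, 28.4 and 33.1 CPM in control against 23.2, 17.6 and 19.9 CPM in DPCP libraries. Its groups did not overlap, and its log2 fold change was -0.58 ± 0.12 (edgeR adjusted p = 0.0044), between -0.66 and -0.51 when each library in turn was left out. Espl1, the separase gene, was at 17.8, 20.2 and 16.7 CPM in control against 23, 21.9 and 26.9 CPM in DPCP libraries, a log2 fold change of 0.47 ± 0.11 (edgeR adjusted p = 0.00909) and the smallest rise of this role group. Ube2c shares 22.8% of its exon bases with Tnnc2, a troponin gene of fast muscle, and Cdc20 2.84% with Elovl1, while Pttg1 and Espl1 share none.

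All 6 cytokinesis genes rose, with the lowest median among role groups in which every gene rose, 1.03. Kif20a, a kinesin gene of the central spindle, was at 14.5, 14.8 and 14.4 CPM in control against 46.5, 40.5 and 43.9 CPM in DPCP libraries (1.65 ± 0.08, SE; edgeR adjusted p = 6.24e-06). Prc1, which encodes the protein that bundles midzone microtubules, was at 31.9, 29.1 and 29.5 CPM in control against 62.3, 55.1 and 62 CPM in DPCP libraries (1.06 ± 0.08). Racgap1 and Ect2, which regulate RhoA at the furrow, rose by 1.18 ± 0.11 and 1.01 ± 0.11, and Anln, an actin-binding scaffold gene of the furrow, by 0.81 ± 0.08. Kif23, the kinesin that pairs with Racgap1 in centralspindlin, had the smallest rise of all 48, at 25.7, 29.9 and 28.4 CPM in control against 39, 30.1 and 38.8 CPM in DPCP libraries (0.43 ± 0.11, edgeR adjusted p = 0.0131). DPCP replicate 2 lay just above the highest control library for Kif23. Kif20a shares 29.3% of its exon bases with Cdc23, which was at 37.7, 35.5 and 36 CPM in control and 35.7, 30.8 and 36.8 CPM in DPCP skin and not called, and Prc1 shares 11.1% with Rccd1.

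In all, 14 of the 50 genes share exon bases with another gene. Of the 36 that share none, 34 were called higher, and their summed level had a ratio of 2.10 between the groups.

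Levels of different genes were compared per length, as RPKM, the CPM divided by the exon length in kilobases (mean ± SD, n = 3). In control skin Pttg1 had the highest level per length of the 50 genes, 15.8 ± 1.42, followed within its spread by Mki67 at 15.4 ± 0.788 and Smc4 at 15.3 ± 0.896, with Cdc20 at 12.1 ± 1.17 and Top2a at 11.5 ± 0.351 next. In DPCP skin Cdc20 was highest at 36.7 ± 5.06, a level whose spread touched that of Mki67 at 31.8 ± 3.05, and Top2a (28.8 ± 1.90) and Ccnb2 (26.5 ± 2.78) followed. Pttg1 was then in place 21 at 10.1 ± 1.41, level with Kif11 and Kif20a. The exon length includes bases shared with other genes, where reads were dropped. Levels per length of genes such as Kif20a (29.3% shared) and Ube2c (22.8%) may therefore be too low, and their places uncertain. Ttk went from place 15 (5.44 ± 0.677) to place 34 (6.19 ± 0.411), Plk1 from place 23 (3.76 ± 0.740) to place 10 (15.8 ± 2.38) and Bub1 from place 42 (1.83 ± 0.141) to place 33 (6.61 ± 0.396). Cenpk was lowest in both groups, at 0.603 ± 0.166 and 1.13 ± 0.0711. Across the 50 genes the control and DPCP levels per length had a Spearman correlation of 0.87, a description of genes measured in the same libraries.

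**Figure D4:**
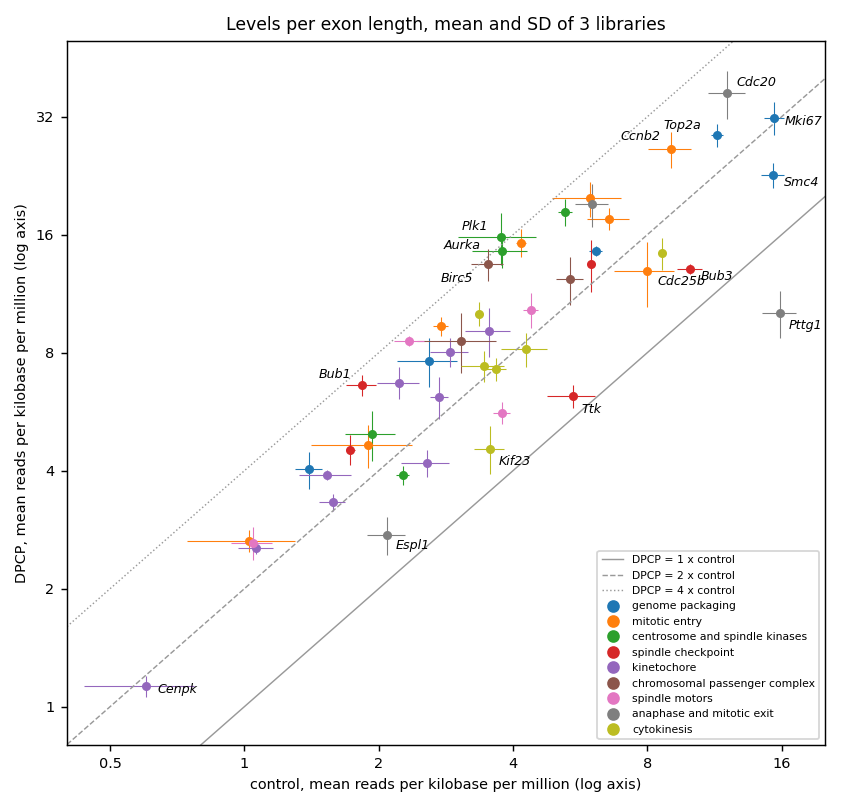
Mean RPKM in the 3 DPCP libraries against the mean in the 3 control libraries for each of the 50 genes (both axes log; bars are SD of 3 libraries; colours are role groups; lines mark equal, 2-fold and 4-fold levels). Most genes lie between the 2-fold and 4-fold lines or just under the former, Ttk, Espl1, Kif23 and Bub3 lie near the line of equal levels, and Pttg1 lies below it.

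Genes whose proteins work together did not all move by the same amount. The ratio of levels per length was taken for 17 pairs of such genes, picked after the values were seen, so no test is given. In some pairs the groups overlapped. For Ndc80 over Nuf2, which form a dimer, it was 0.762, 0.806 and 0.551 in control and 0.673, 0.677 and 0.606 in DPCP libraries, for Ncapg over Ncaph 0.645, 0.479 and 0.512 in control and 0.512, 0.563 and 0.515 in DPCP libraries, and for Cdk1 over Ccnb1 0.890, 0.672 and 0.598 in control and 0.720, 0.810 and 0.788 in DPCP libraries. In the larger part of the 17 pairs every DPCP library lay above every control library. The gene with the larger log2 fold change was put on top in each of these, so the direction follows from that choice. Smc2 over Smc4, the condensin ATPase pair, was 0.427, 0.405 and 0.371 in control and 0.6, 0.676 and 0.650 in DPCP libraries. For Racgap1 over Kif23, the centralspindlin partners, the ratio was 0.955, 0.890 and 1.07 in control and 1.52, 1.75 and 1.63 in DPCP libraries. Birc5 over Incenp, of the passenger complex, was 0.644, 0.643 and 0.670 in control and 1.17, 1.10 and 1.02 in DPCP libraries. Separase over its inhibitor, Espl1 over Pttg1, was 0.121, 0.162 and 0.115 in control and 0.227, 0.286 and 0.309 in DPCP libraries. Of the 17 pairs the checkpoint kinases differed most, with Bub1 over Ttk at 0.306, 0.383 and 0.328 in control and 0.926, 1.12 and 1.18 in DPCP libraries.

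Genes of the same machines outside the set were taken from lists chosen by function. Their counts stand beside shares of 22.8% higher and 23.3% lower over all genes tested. The 5 lists of other mitotic genes held 99 tested genes, of which 69 rose and 5 fell, with a median log2 fold change of 0.83. Other kinetochore and centromere genes were higher for 24 of 29 and lower for none (median 1.04). Among them Zwilch, of the complex that brings dynein to kinetochores, was at 4.97, 5.16 and 3.85 CPM in control and 15.6, 16.4 and 17.9 CPM in DPCP skin (1.91 ± 0.15), and Spdl1, a dynein adaptor gene, rose by 1.43 ± 0.12. Other spindle and cytokinesis genes were higher for 23 of 25 and lower for none (median 1.36). Cdca3 was at 16.4, 18.1 and 17.1 CPM in control and 54.1, 47.8 and 58.2 CPM in DPCP skin (1.71 ± 0.09) and the spindle microtubule protein gene Tacc3 rose by 1.79 ± 0.11.

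The remaining lists were mixed. With 22.8% of all genes tested called higher and 23.3% lower, some calls each way are common in these data. Of 17 other condensin and cohesin genes, 9 rose and 2 fell (median 0.24). Ncapg2, of condensin II, rose by 1.12 ± 0.10 and Sgo1, the shugoshin gene that protects centromeric cohesin, by 1.57 ± 0.15. The cohesin loader gene Nipbl was at 148, 139 and 143 CPM in control and 114, 109 and 107 CPM in DPCP skin (-0.31 ± 0.08) and the cohesin subunit gene Stag2 had a log2 fold change of -0.35 ± 0.10. Of 17 genes of the anaphase-promoting complex and its partners, 7 rose and 2 fell (median 0.22), and their summed level was 933, 955 and 925 CPM in control and 988, 937 and 1025 CPM in DPCP libraries, with overlap. Ube2s, its chain-extending enzyme gene, rose by 1.0 ± 0.08 and the subunit gene Cdc27 by 0.44 ± 0.07, while the log2 fold changes of Anapc5 and Anapc13 were -0.28 ± 0.08 and -0.24 ± 0.08. The calls of these small decreases were lost when some single libraries were left out, with log2 fold changes still between -0.33 and -0.21. Nipbl lost its call without control replicate 1 (edgeR adjusted p = 0.0514), Stag2 without control replicate 1 or 3 or DPCP replicate 3 (0.0604 to 0.0865), Anapc5 without control replicate 2 or 3 or DPCP replicate 1 or 2 (0.0568 to 0.0788), and Anapc13 whichever single library was left out (0.0697 to 0.143). Of 11 other mitotic entry genes, 6 rose and 1 fell (median 1.32). Cks1b, a Cdk-binding subunit gene, rose by 1.56 ± 0.09 and the kinase gene Pbk by 1.5 ± 0.11, and Ensa, an inhibitor of the phosphatase PP2A in mitosis, was at -0.37 ± 0.08.

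Regulators of these genes also differed by member. Here too the shares over all genes tested were 22.8% higher and 23.3% lower. Of 22 genes of the MuvB and DREAM complexes, the E2F family and NF-Y, 11 rose and 3 fell (median 0.29). Mybl2 encodes B-Myb, which joins MuvB at mitotic promoters, and was at 3.21, 3.95 and 2.60 CPM in control and 20.02, 19.7 and 27.4 CPM in DPCP skin, a log2 fold change of 2.86 ± 0.19 (SE, with edgeR adjusted p = 2.27e-05). E2f8 rose by 2.16 ± 0.16. Rbl2, the p130 gene of the repressive DREAM complex of resting cells, was at 54.6, 60.8 and 58.1 CPM in control and 39.5, 34 and 39.3 CPM in DPCP skin (-0.55 ± 0.09), and Tfdp2, an E2F partner gene, had a log2 fold change of -0.74 ± 0.12. All 40 DNA replication genes rose (median 1.27), among them Rrm1 of ribonucleotide reductase, at 80.8, 78.4 and 78.6 CPM in control and 186, 179 and 187 CPM in DPCP skin (1.29 ± 0.07), and the thymidine kinase gene Tk1 (1.75 ± 0.10). Of 14 tested G1 cyclin and CDK inhibitor genes, 8 rose and 5 fell (median 0.43), and Cdkn2a had too few counts. The cyclin E genes Ccne1 and Ccne2 rose by 2.74 ± 0.19 and 1.05 ± 0.11, while the inhibitor genes Cdkn1b and Cdkn1c had log2 fold changes of -0.75 ± 0.11 and -1.19 ± 0.17. Zwilch, Tacc3, Stag2, Ube2s, Anapc13, E2f8, Rbl2, Tk1, Ccne2 and Cdkn1c share exon bases with another gene.

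**Figure D5:**
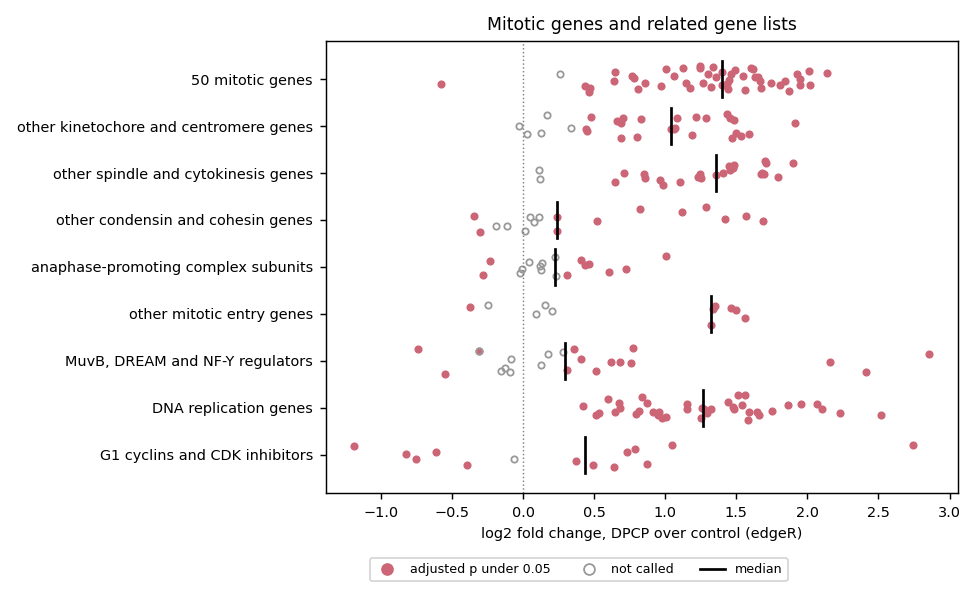
Log2 fold change, DPCP over control, of each tested gene of the 50 mitotic genes and of 8 related lists (filled: edgeR adjusted p under 0.05; open: not called; black bars: medians). The mitotic genes, the other kinetochore and spindle lists and the replication list lie almost wholly above 0, while the condensin and cohesin, anaphase-promoting complex, regulator and G1 lists spread to both sides.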

How the data were processed

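RNA was taken from dorsal skin and made into libraries of polyadenylated RNA with a strand-preserving kit, per the labels' protocols. The deposited values are raw counts per gene, counted by featureCounts 1.6.2 against release 102 of Ensembl's GRCm38 gene models, per the file headers. The recorded command sets no option for strand, pairs or ambiguous reads, so mates were counted singly on either strand, and reads that align to several places or overlap more than 1 gene were dropped. The submitters' processing notes list mm10, HISAT2 2.2.1, Trimmomatic 0.36, DESeq2 1.34.0 and StringTie 2.2.1.

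Here the whole table was fitted with edgeR 4.0.16 in R 4.3.3 (TMM factors 0.942 to 1.04, filterByExpr defaults, quasi-likelihood F-test, Benjamini-Hochberg over 18259 genes). Standard errors equal the size of the unshrunken log2 fold change over the root of its F. CPM used library totals, and RPKM the exon length in the deposited table. A count of 0 allows up to 0.0772 to 0.106 CPM (3 counts), which covers counting error only. Of the 55487 gene identifiers 55141 had a symbol in GENCODE M21, and 288 of 289 listed genes matched. Promoter windows came from RefSeq.

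The rule for per-library values took, in each role group, the 2 genes with the smallest p and the 1 with the largest, with Mki67, Top2a, Cdk1, Ccnb1, Plk1, Aurkb, Birc5, Cdc20, Foxm1 and any gene that fell, and from each related list up to 2 genes higher and 2 lower with the smallest p. The members, lists and rules were chosen with earlier results of these data known. The procedure was also run on simulated counts with 200 changed genes. That is far fewer than were called here, so the run cannot show how the procedure does under so wide a change. As alternatives served DESeq2 1.42.0, other count filters, scaling by library totals, by upper quartiles or by RLE factors, a replicate block and leaving out each library. The labels do not say whether replicate numbers pair the samples. 1 marker list is not reported here.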

Additional observations from a re-analysis of the deposited data

How the results depend on the processing

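Of 650 results for single mitotic genes under the alternatives, 649 kept their direction and their side of the threshold. The exception was Ttk without control replicate 1 (0.37, adjusted p = 0.0296, edgeR), and its adjusted p ranged from 0.0296 to 0.204 over all alternatives. Leaving out each library in turn left 48 to 49 genes called higher and 1 lower, with a median log2 fold change of 1.35 to 1.43, and brought Kif23 to an edgeR adjusted p of up to 0.0487 and Espl1 of up to 0.0359. Library totals alone gave the lowest median, 1.32, with 48 and 1 calls, and DESeq2 gave 48 and 1 calls at a median of 1.42. Counts called higher in the related lists moved by less than 1.5 times under each alternative. The CHR share was 68.3% with TTTGAA alone, against 20.2% of all genes with a window. In windows from 150 bases before the start it was 73.2%, against 13.7% of all genes. For the 25 named genes of those lists, 306 of 325 results kept direction and call, and the 19 that lost the call belonged to Nipbl, Stag2, Anapc5 and Anapc13. Beyond single libraries, these were Anapc5 without a count filter (-0.27) and Anapc13 with DESeq2, RLE factors, no count filter or the replicate block (-0.24 to -0.22). Without the gene that differed most, added after seeing the data, the summed ratio of DPCP to control went from 1.77 to 0.927 for basal keratinocyte and from 1.15 to 0.903 for fibroblast markers. TMM-scaled totals gave a summed ratio of 2.30. Deviations from the group means correlated at 0.05, 0.03 and 0.11 between libraries of equal replicate number. Between libraries of unequal number the correlations ran from -0.14 to 0.10. With 3 libraries a group these values cannot show whether the samples were paired. A fit with the replicate block gave 48 higher and 1 lower, with a median of 1.40. With 3 libraries a group and unknown origin of the replicates, small differences such as that of Ttk remain uncertain.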
